A study of Homo sapiens with 15 samples.

Results

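The dense bins are stretches of the K562 genome in which DNA ends with a free 3′-OH were found at an unusually high density before any nuclease was added. The genome of build hg19 was divided into fixed bins of 100 kb on chromosomes 1 to 22 and X, and a bin was taken when the unique sites of the 3 untreated samples, summed, reached at least 3 times the median of the bins with any site. The median was 249 sites, so the lower bound was 747, and 411 of 30376 bins (28448 of them with a site) reached it. The 6 of these that overlap BCR, ABL1 or NUP214 were left out, and the remaining 405 dense bins were 1.42% of the bins with sites. The bins were chosen by the untreated site counts, so their untreated levels are described here and not tested. The bins closest to the bound held 747, 748 and 748 sites on the inside and 746 sites each for the nearest 3 on the outside.

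K562 is a human chronic myeloid leukemia line, wild type in the labels, and as 1 cell line it carries its own rearranged genome into every sample. All 15 samples came from nuclei crosslinked with 1% formaldehyde and permeabilised with detergent. They were either left untreated or digested with 0.01, 0.1, 1 or 10 U of nuclease P1, with 3 replicates in each of the 5 groups. The ends were tailed and sequenced, and a site is 1 genome position and strand at which at least 1 end (terminus) was read. The replicates are biological ones in the methods. Samples held between 2046116 and 3859475 nuclear sites, the most in untreated replicate 1, and among the 10 U samples the most in replicate 2, with 3274245.

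Nuclease P1 cuts single-stranded DNA and leaves 3′-OH ends, while untreated nuclei show the breaks and replication ends that were already there. The number of ends read from a region depends on how many copies of it the cell has, and leukemia lines such as K562 are known to carry extra copies of the BCR-ABL1 fusion and its surroundings. Next to centromeres lie long arrays of satellite DNA, of which a reference assembly holds only part, so that reads from many copies can pile up on the few copies that are in it. The alpha satellite of centromeres often carries the CENP-B box, the binding site of the centromere protein CENP-B, and satellites 2 and 3 are built from the unit GGAAT.

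Reference sequence from 6 windows of 200 bases shows these kinds of dense bin, each the window with the most untreated sites in its bin (for the first, among windows that hold a CENP-B box). All are from hg19 and not from the reads. Capitals mark the CENP-B box in the first window and GGAAT, or ATTCC where it lies on the other strand, in the others. The first 4 lie in no annotated gene, the fifth in an intron of RSPH14 and the sixth in an intron of LAMC3.
Alpha satellite window of chromosome 1, chr1:121485204-121485403, plus strand: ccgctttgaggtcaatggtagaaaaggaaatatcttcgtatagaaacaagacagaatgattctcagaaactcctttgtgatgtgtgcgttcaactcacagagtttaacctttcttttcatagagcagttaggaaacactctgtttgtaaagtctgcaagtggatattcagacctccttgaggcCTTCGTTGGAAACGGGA
Densest bin, chromosome 10, chr10:42385034-42385233, plus strand: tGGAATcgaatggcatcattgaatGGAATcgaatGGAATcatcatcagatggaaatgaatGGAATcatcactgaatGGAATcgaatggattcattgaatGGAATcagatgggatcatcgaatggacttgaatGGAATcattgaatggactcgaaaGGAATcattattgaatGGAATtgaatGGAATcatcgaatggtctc
Lowest plus-strand share, chromosome 4, chr4:49151374-49151573, plus strand: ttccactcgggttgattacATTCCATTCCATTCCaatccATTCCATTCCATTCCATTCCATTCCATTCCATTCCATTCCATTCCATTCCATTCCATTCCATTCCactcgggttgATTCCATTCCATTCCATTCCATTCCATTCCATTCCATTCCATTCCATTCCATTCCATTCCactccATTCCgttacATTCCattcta
Highest plus-strand share, chromosome 4, chr4:49659519-49659718, plus strand: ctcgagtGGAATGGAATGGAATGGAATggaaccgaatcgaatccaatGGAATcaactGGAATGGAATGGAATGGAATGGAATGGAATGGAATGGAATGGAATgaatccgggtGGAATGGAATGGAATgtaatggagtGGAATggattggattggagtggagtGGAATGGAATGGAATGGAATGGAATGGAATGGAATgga
Densest bin of the chromosome 22 runs, chr22:23407177-23407376, plus strand: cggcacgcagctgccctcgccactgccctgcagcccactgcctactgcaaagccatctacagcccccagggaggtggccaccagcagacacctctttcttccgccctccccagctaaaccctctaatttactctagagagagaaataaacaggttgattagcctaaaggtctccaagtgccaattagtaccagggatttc
Densest bin of chromosome 9, chr9:133922026-133922225, plus strand: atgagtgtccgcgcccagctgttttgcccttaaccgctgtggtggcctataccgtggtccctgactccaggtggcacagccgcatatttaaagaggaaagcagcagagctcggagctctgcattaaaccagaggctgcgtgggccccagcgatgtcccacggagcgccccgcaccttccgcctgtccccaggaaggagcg

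The windows differed in how their ends were arranged. The chromosome 1 window held 765 untreated sites, 19.9% of those in its bin, at which 14794 termini were read. The chromosome 10 window held 410 sites, 338 on the plus and 72 on the minus strand, and the chromosome 4 windows held 75 plus and 203 minus sites, and 76 plus and 18 minus sites. The RSPH14 and LAMC3 windows held 45 and 31 sites, 0.927% and 0.634% of the sites of their bins, so the fullest window of a gene-bearing dense bin held a small part of its ends.

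The 405 bins were sorted by place. Of them, 44 lay beside an assembly gap, meaning that the bin or its direct neighbour holds part of a run of unknown bases of at least 10 kb, where 2.83% of all bins do. Of the others, 199 lay in runs of at least 3 dense bins with at most 1 bin between neighbours, and 162 were single bins or pairs. They formed 193 stretches in all. Chromosome 22 had the highest share of dense bins, 41 bins or 11.7%, followed by chromosome 21 with 6.72% and chromosome 7 with 4.41%. Chromosome 14 had none and X had 1.

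The densest run was on chromosome 22 and ended at the left-out BCR bins. From chr22:21900001-23500000 all 16 bins were dense, with a mean fold over the median bin of 10.07 and a highest of 19.49, in a stretch whose genes include UBE2L3, a ubiquitin-conjugating enzyme, GNAZ, a G protein alpha subunit, and also RSPH14, YPEL1 and PPIL2. The bin at chr22:23400001-23500000, with RSPH14, GNAZ and RAB36, reached 20.50, 17.95 and 18.97 in the untreated replicates. It reached 19.88, 18.74 and 17.41 at 0.01 U, 18.30, 19.24 and 18.36 at 0.1 U, 17.79, 18.69 and 19.14 at 1 U and 17.97, 21.16 and 18.20 at 10 U. The groups overlapped, and no sample fell below 17.41. Over the whole run the mean fold was 9.99 ± 0.216 in the untreated samples, 9.80 ± 0.223 for 1 U, 10.3 ± 0.622 for 10 U (SD over 3 samples), so the groups did not separate beyond their spread.

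Further stretches lay on the same side of BCR. Over chr22:18900001-20300000 14 dense bins averaged 7.77 times the median, with HIRA, a histone chaperone, CLTCL1, a clathrin heavy chain, DGCR2, GNB1L, C22orf39 and TXNRD2, a mitochondrial thioredoxin reductase. Over chr22:20700001-21500000 8 dense bins averaged 7.92 times, with PI4KA, a phosphatidylinositol kinase, CRKL, an adaptor known as a substrate of BCR-ABL1, MED15, KLHL22, SNAP29 and FAM230A. On the other side of BCR the density dropped: the first 10 bins ran from 0.924 to 1.87 times the median and none of the 60 bins over 6 Mb was dense, while on the near side 10 of 10 bins were, the lowest at 4.22. Of 12 listed neighbours of BCR with a position, 11 lay in a dense bin, at a median of 10.2 times, from VPREB1 at 6.54 to GNAZ at 19.49, and IGLL1 beyond BCR stood at 1.42.

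**Figure D1:**
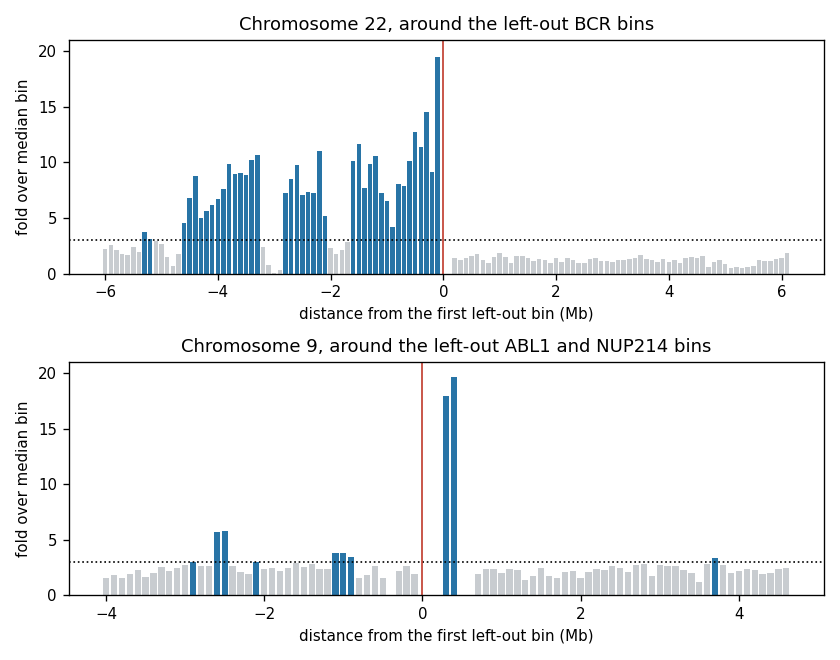
Untreated sites per 100 kb bin as a fold of the median bin (vertical axis) against distance in Mb from the first left-out bin (horizontal axis), on chromosome 22 around BCR and on chromosome 9 around ABL1 and NUP214. Blue bars are dense bins, grey bars other bins, left-out bins are blank and the dotted line is 3 times the median; density on chromosome 22 falls from 19.49 before BCR to at most 1.87 after it.

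On chromosome 9 the highest density was narrow. The bins chr9:133800001-134000000, between the left-out bins of ABL1 and NUP214, stood at 17.94 and 19.65 times the median and hold LAMC3, a laminin chain, FIBCD1 and AIF1L. They count as a pair here, since the left-out bins beside them are not members. The second of them had 19.75, 19.14 and 19.69 in the untreated samples and 17.39, 20.10 and 18.32 at 10 U, again with overlapping groups. Of 16 listed neighbours of ABL1 and NUP214, these 3 lay in a dense bin. Others overlap left-out bins, while NCS1 at 2.69, ASS1 at 2.63 and POMT1 at 2.40 stood below the bound, and the 10 bins after NUP214 reached 2.47 at most. Lower dense bins lay before ABL1, the highest at 5.84 times.

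A dense run of low GC content was on chromosome 13. The 6 bins of chr13:91700001-92300000 averaged 3.44 times the median and 5.05 times the bins of the same GC content, and hold MIR17HG, the host gene of the miR-17-92 cluster, and the start of GPC5, a glypican. The bin at chr13:92000001-92100000 had 3.90, 4.39 and 4.43 in the untreated samples and 4.04, 4.25 and 3.35 at 10 U. Of 7 listed genes of 13q31, MIR17HG, GPC5 and GPC6 touched a dense bin, and DCT at 0.849, TGDS at 0.719 and SOX21 at 0.908 did not. The files hold no copy number, so more copies of a segment and more ends per copy cannot be told apart in any of these segments.

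Most of the other runs were less dense and rich in GC. The next runs by sites were chr6:43000001-44300000 (11 dense bins, mean 3.37 times, with PTK7 and XPO5, an exporter of microRNA precursors), chr7:156700001-157900000 (10 bins, 3.42, with PTPRN2, UBE3C and MNX1), chr16:84800001-85700000 (9 bins, 3.64, with GSE1 and USP10) and chr3:12800001-13900000 (9 bins, 3.57, with IQSEC1, NUP210 and WNT7A, a secreted signalling protein). Against bins of the same GC content these runs stood at 1.44 to 1.53 times, where the BCR run stood at 5.51.

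GC content moved with density over the whole genome. The median dense bin had 51.1% GC, and 252 of the 405 (62.2%) had at least 50%, where 6.48% of all bins do. The median density rose from 0.494 times at 34% GC to 2.85 times at 60% GC, and across 28281 bins GC content and log2 density had a Pearson r of 0.665, given as a description since bins share libraries and neighbours. Held to the median of their own GC content, a comparison added after the data were seen, 76 of the 405 bins stayed at 3 times or more, 27 of the 44 beside a gap, 41 of the 199 in runs and 8 of the 162 single ones. The authors removed ends whose 20 bases upstream in the read held over 40% T. Per position that this limit leaves countable, also added after the data were seen, 209 of the 405 bins stayed at 3 times or more. Bins of high GC were dense to different degrees on different chromosomes. Of bins with at least 50% GC, 69.4% were dense on chromosome 6 and 65.6% on chromosome 21, but 4.40% on chromosome 19 and 3.76% on chromosome 17.

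**Figure D2:**
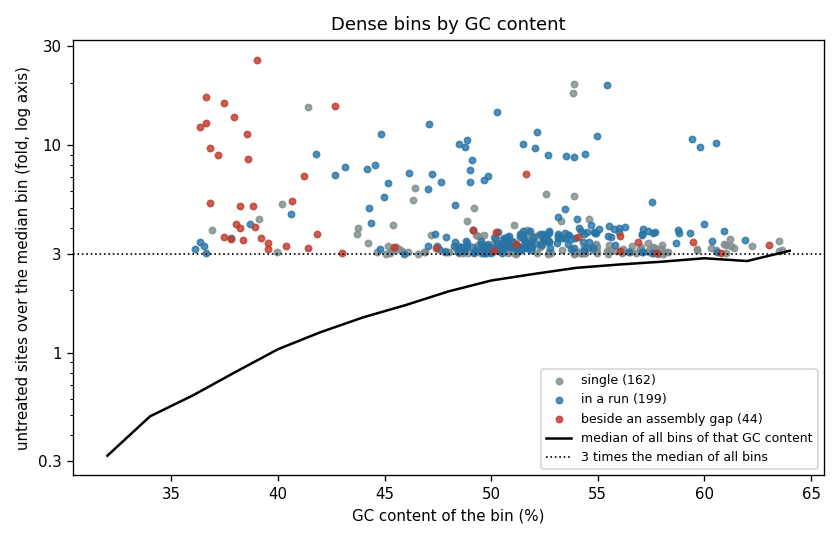
Fold over the median bin (vertical, log axis) against GC content in percent (horizontal) for the 405 dense bins, coloured by place, with the median of all bins of each GC content as a line. Bins beside a gap reach 25.7 times at 39.0% GC, while most others gather just above the dotted line of 3 times near 50% GC.

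Beside gaps the ends were concentrated. The densest bin of all, chr10:42300001-42400000, stood at 25.7 times the median, with 25.03, 27.11 and 25.28 in the untreated samples, and it holds 1844 matches to GGAAT repeated 2 times in a row. With P1 it had 22.47, 26.3 and 22.86 for 0.01 U, 21.88, 25.01 and 22.69 for 0.1 U, 25.75, 28.4 and 25.65 for 1 U, and 22.34, 20.27 and 23.78 for 10 U. The 10 U values overlapped those of the lower amounts, and the bin was not called there (edgeR adjusted p = 0.135). Its stretch of 3 dense bins, chr10:42300001-42600000, averaged 15.7 times, and the other stretch of this kind among the 10 with the most sites, chr16:46300001-46500000, averaged 14.6 times. In the median bin beside a gap the fullest 10 kb held 35.5% of the sites, against 13.3% in runs, 13.1% in single bins and 14.9% in other bins. Of the sites in bins beside a gap, 36.8% ± 6.40 (SD, n = 3) of those in an untreated sample were found at the same position and strand in another untreated sample, where 1.06% ± 0.272 were in bins that are not dense. Each site there was read 2.12 ± 0.120 times in the untreated samples, against 1.09 ± 0.00961 in bins that are not dense. These values pool the sites of all bins of a kind, and single bins differed widely. The median bin beside a gap had 10.0% recurrent sites and 1.13 termini per site, against 0.664% and 1.08 in bins that are not dense. The highest was chr1:121400001-121500000, with 8.29 termini per site, 80.8% recurrent sites and 119 matches to the CENP-B box. Its fold was 12.09, 18.85 and 17.50 in the untreated samples, lowest in the deepest, and 13.29, 11.66 and 13.99 at 10 U.

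Motifs were counted on both strands. The CENP-B box matched at least 5 times in 13 of the 405 dense bins, all beside a gap, and in 0.158% of all bins with known bases. The doubled GGAAT, with overlapping matches counted, occurred at least 20 times in 13 dense bins, 10 of them beside a gap, and in 0.126% of all. At least 1 match was found in 30.6% of dense bins and in 32.9% of all. TTAGGG repeated in tandem, the telomere unit, was found as 3 units in a row in 6 dense bins (1.48%) and in 0.477% of all. The minimum counts were chosen after the counts were seen, and a match describes the letters only.

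The dense bins stood above the median bin in every sample. In the treated samples, which had no part in the choice, all 405 stood at 2 times the median of the sample or more, the lowest value being 2.11, and 156 stood at 3 times or more in all 12. In the untreated samples 260 did so in all 3. The number at 3 times or more was 371, 327 and 340 in the untreated samples and between 245 and 368 in the treated ones. The median coefficient of variation of a bin over the untreated samples was 6.24%. Over the 405 bins, samples of the same amount correlated at 0.954 to 0.976, a description over bins that share their libraries.

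The share of all sites that fell in dense bins lay within a narrow range. The untreated samples gave 5.29% ± 0.0284 (SD, n = 3 here and below). With P1 the share was lowest in the 1 U samples, 5.14% ± 0.0971, and highest in the 10 U samples, 5.22% ± 0.169, with 5.16% ± 0.0975 for 0.01 U and 5.21% ± 0.0896 for 0.1 U. Bins beside a gap differed from this. Their share was 0.809%, 0.897% and 0.850% in the untreated samples, 0.806%, 0.869% and 0.837% at 0.01 U, 0.807%, 0.861% and 0.812% at 0.1 U, 0.823%, 0.841% and 0.811% at 1 U and 0.762%, 0.710% and 0.783% at 10 U, so that all 10 U samples lay below all others. Counted as termini, their share was 1.63% ± 0.0459 in the untreated samples, whose site counts chose the bins, which can raise that value. Among treated samples the termini share fell with the amount: 1.62% ± 0.0290 (0.01 U), 1.56% ± 0.0301 (0.1 U), 1.36% ± 0.0461 (1 U), 1.23% ± 0.0718 (10 U). For sites beside gaps, the mean ratio of 10 U to untreated was 0.883. With bins chosen on the other 2 untreated samples that ratio was 0.889. With every sample thinned to the smallest number of sites, the ratio of the 10 U share to the mean of the lower amounts was 0.903, against 0.906 unthinned. The thinning drew from unique sites, which keeps the expected share, so it cannot show an effect of depth. In every group except 1 U the deepest sample, replicate 1 or at 10 U replicate 2, had the lowest share beside gaps. No test was made of these sums.

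**Figure D3:**
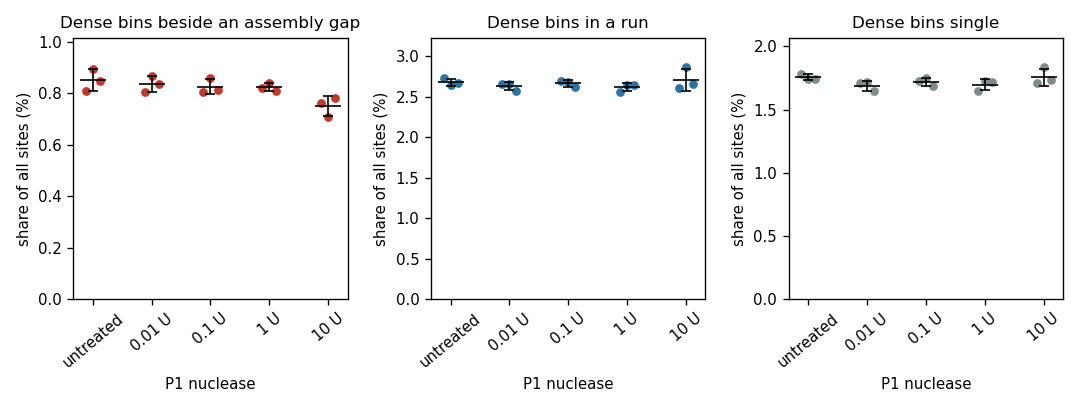
Share of all sites in percent (vertical axis, from 0) in each sample (points, 3 per group) with the mean and SD (bars), by P1 amount, for dense bins beside a gap, in runs and single. Only the bins beside a gap show 10 U samples wholly below the other groups, at 0.710% to 0.783%.

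Between P1 amounts, each bin was tested on the 12 treated samples with edgeR's quasi-likelihood test and Benjamini-Hochberg adjustment over 28174 bins. At 10 U against the mean of the lower amounts, 33 of the 405 dense bins passed an adjusted p of 0.05, where 1.06% of all bins did. Of these, 19 were higher, against 0.713% of all bins, and 14 were lower, against 0.344%. Dense bins were chosen for at least 3 times the median sites, and more sites give a count test more power. The shares called in dense bins and in all bins, here and in the other tests, are therefore not like for like. The median log2 change of the dense bins was 0.05 and that of all bins -0.0011. Bins beside a gap went both ways, with 4 higher, 14 lower and a median log2 change of -0.0076 over the 44. All 14 lower bins lay beside a gap, and 13 of them were the 13 dense bins with at least 5 CENP-B boxes, at a median log2 change of -0.43. Of the 30 other tested bins with as many boxes, which are not dense, 18 were lower and 0 higher by the same test. The remaining dense bin that fell, chr21:10700001-10800000, holds 591 doubled GGAAT and no CENP-B box (-0.34 ± 0.0596, SE; edgeR adjusted p = 2.7e-05). With 10 U replicate 2 left out, 15 dense bins were called, and with 10 U replicate 3 left out 20 were. Without replicate number 2 at every amount 12 were called, and without number 3 17. Over all bins the calls also fell, from 298 to 52 without number 2 and to 144 without number 3.

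The 3 lowest hold 61, 41 and 5 CENP-B boxes. At chrX:61700001-61800000 the fold over the median bin was 3.62, 3.82 and 3.63 at 0.01 U, 3.15, 4 and 3.395 at 0.1 U, 2.70, 2.84 and 2.68 at 1 U and 2.48, 2.11 and 2.47 at 10 U. All 10 U values were below all others, and the log2 change was -0.50 ± 0.0769 (SE; edgeR adjusted p = 2.1e-07). At chr19:27700001-27800000 the 10 U values of 6.86, 6.10 and 7.32 were below the 8.03 to 10.42 of the lower amounts, with a log2 change of -0.49 ± 0.0597 (edgeR adjusted p = 2.5e-11). At chr10:42400001-42500000 they were 4.08, 3.38 and 4.41 against 4.65 to 6.16, with -0.47 ± 0.0669 (edgeR adjusted p = 2.4e-08).

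Depth was set beside these 3 bins. Untreated replicate 1, the deepest sample, stood lowest of the untreated samples at each, with 8.10 against 11.38 and 10.82 at chr19:27700001-27800000, and 10 U replicate 2, the deepest of its group, was lowest at each. The other groups were mixed. At the chromosome X bin the deepest samples at 0.01 U and 0.1 U, both replicate 1, were also the lowest of their groups. At chr19:27700001-27800000 the deepest 1 U sample, replicate 1, was the highest of its group, with 8.91 against 8.03 and 8.82. With termini counted in place of sites 13 dense bins were lower, beside 188 of all 28186 bins. With 10 U replicate 2 left out, an alternative added after the data were seen, 10 dense bins were lower. The part of depth in the fall of each bin was not tested.

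Of the 3 highest, the first 2 lie beside a gap and the last is a single bin. At chr1:142800001-142900000 the fold was 4.29, 4.54 and 4.30 at 10 U and 2.63 to 3.51 at the lower amounts, a log2 change of 0.48 ± 0.0675 (edgeR adjusted p = 1.3e-08). At chr1:2500001-2600000, with TTC34, MMEL1, a membrane metalloprotease, and PRXL2B, it was 3.49, 4.16 and 4.04 against 2.70 to 3.23 (0.37 ± 0.0690, edgeR adjusted p = 0.00012). At chr1:1200001-1300000, with DVL1, a Wnt pathway protein, and INTS11, an RNA endonuclease, it was 3.24, 4.22 and 3.07 against 2.44 to 3.11, and here the groups overlapped (0.33 ± 0.0714, edgeR adjusted p = 0.0019). Of the 19 higher bins, 13 had at least 50% GC, as did 62.2% of all dense bins, so that count lies near their own share. Over all bins the median log2 change rose from -0.02 at 34% GC to 0.13 at 60% GC. With 10 U replicate 2 left out, 5 dense bins were higher. At GC of at least 50% the median log2 change was 0.07 both for dense bins and for others. The part of GC content was not tested.

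**Figure D4:**
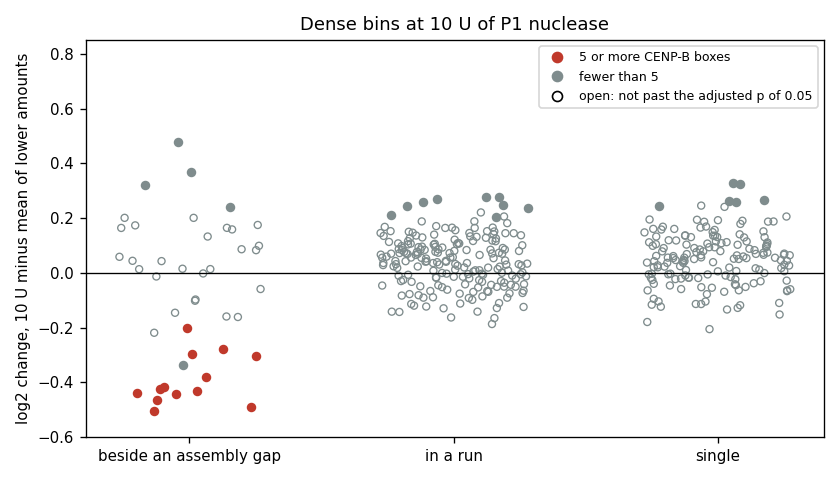
Log2 change of sites at 10 U against the mean of 0.01, 0.1 and 1 U (vertical axis) for each dense bin, by place (horizontal axis, points spread sideways). Filled points passed an adjusted p of 0.05 and red points hold 5 or more CENP-B boxes; the 13 red points lie between -0.50 and -0.20, all filled.

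The steps between amounts were uneven. At 10 U against 1 U, 14 dense bins passed by edgeR's test where 0.241% of all bins did, 4 of them higher (0.16% of all bins) and 10 lower (0.0816%). Without 10 U replicate 2 the count was 3. Without replicate number 1, 2 or 3 at every amount it was 4, 1 or 9, beside 16, 3 or 29 of all bins. At 1 U against 0.1 U edgeR called 0 dense bins, where 0.0177% of all bins were called (0.0071% higher, 0.0106% lower), and 30 had an unadjusted p under 0.05. At 0.1 U against 0.01 U it called 0, where 0.0106% of all bins were called, all of them higher, and 14 had an unadjusted p under 0.05. DESeq2 called 0 dense bins in both. The unadjusted counts have no share over all bins beside them, and some bins pass such a limit without any change. They are therefore not read as changes. With termini in place of sites, 9 dense bins were lower at 1 U than at 0.1 U, and so were 20 of all 28186 bins in that fit.

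Most dense bins passed no test of uneven strands. Over all dense bins the plus strand held 49.7% ± 0.198 of the sites (SD, n = 3 untreated samples). By edgeR's quasi-likelihood test of strand within samples, 17 of 405 dense bins were uneven in the untreated samples, where 0.157% of all bins were, 8 towards plus (0.0642% of all) and 9 towards minus (0.0928%). In the treated samples 49 were, where 3.28% of all bins were, 30 towards plus (1.57%) and 19 towards minus (1.71%), and 15 of the 17 were called again, each in the same direction. Dense bins hold more sites than most bins, so these shares are not like for like either. The treated fit also held 12 samples and the untreated fit 3, so the counts of the treated and untreated fits cannot be compared. Of the 13 dense bins with at least 20 doubled GGAAT, 11 were uneven in the untreated samples and all 13 in the treated ones, beside 6 and 36 of the dense bins with fewer. Without untreated replicate 1 the untreated count was 10, and without replicate number 2 or 3 the treated count was 27 or 28.

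The 3 most uneven bins were on chromosomes 4 and 16. At chr4:49600001-49700000 the plus strand held 86.0% of untreated and 82.8% of treated sites, at chr4:49100001-49200000 17.6% and 20.9%, and at chr16:46300001-46400000 22.4% and 24.4%. Their log2 ratios of plus to minus were 2.63 ± 0.131, -2.20 ± 0.0558 and -1.76 ± 0.0594 (SE). The limit on T leaves the strands unequal numbers of countable positions here, with plus shares of 58.1%, 42.2% and 40.7%. In all 17 uneven bins the sites were farther from an even split than the countable positions. These bins were called for their uneven sites, so that count is largely set by the call. What share of the imbalance that limit accounts for was not tested.

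**Figure D5:**
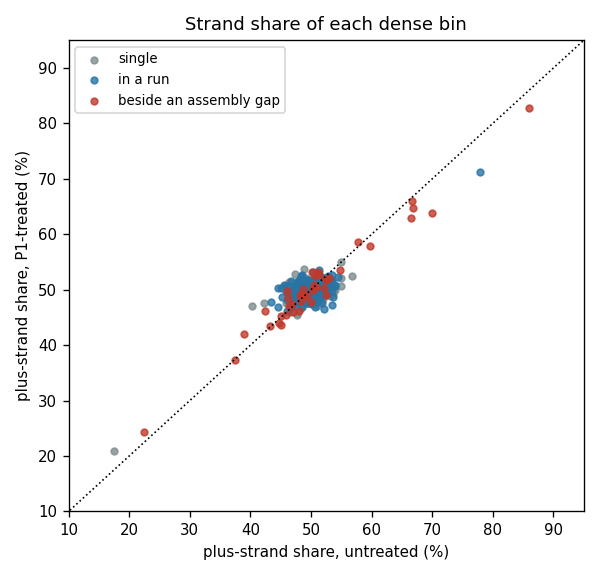
Share of sites on the plus strand in percent for each dense bin, untreated (horizontal) against P1-treated (vertical), coloured by place, with a dotted line of equality. Most bins lie near 50% on both axes, and the outlying bins, from 17.6% to 86.0%, keep their side in the treated samples.

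The authors' P1 regions, called by setting each P1 sample against its same-numbered untreated one, fell in dense bins more often than sites did. The share of regions in dense bins was 18.9% ± 0.628 in the 0.01 U samples and 13.1% ± 0.896 in the 10 U samples (SD, n = 3), with 18.05% ± 1.36 for 0.1 U and 16.5% ± 2.63 for 1 U between them, while the share of sites was 5.14% to 5.22%. The mean ratio of both shares was 3.21 over the 12 samples. Among the dense bins, those in runs held 11.8% ± 0.573 of the regions at 0.01 U, single ones 4.86% ± 0.422 and those beside gaps 2.20% ± 0.313. The 76 dense bins at 3 times or more of their GC median held 11.8% ± 0.957 of these regions and 1.90% of the sites. The other 329 held 7.04% ± 0.438 and 3.26%. Whether more sites in a bin alone raise the number of calls was not tested. The region calls used the untreated samples that chose the bins, so these shares are a description.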

How the data were processed

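The deposited lists give, for each nuclear site, a count of termini; a site was 1 row. Per the labels and methods, the authors filtered and trimmed reads, aligned them to GRCh37/hg19 with BWA 0.7.12 (the submitters' processing notes), kept uniquely mapped pairs, removed ends with over 40% T in the 20 upstream bases, and called regions with SICER 1.1. The T limit was checked on the sites of untreated replicate 1 and held for all of them. Rows off chromosomes 1 to 22 and X (0.515% to 0.579%) and mitochondrial lists were not used, nor were the p-values, fold and FDR columns of the region lists, which hold the authors' own comparison. Here sites were counted in 100 kb bins. The bins, lists and regions named were chosen with earlier results of these data known; named were the 10 stretches with the most sites, the densest bins, the 3 highest and 3 lowest called at 10 U, the 3 most uneven by strand and the bin with most termini per site. Genes came from a GENCODE annotation lifted to this build, and motifs were searched on both strands. Tests used edgeR 4.0.16 in R 4.3.3 (TMM, replicate number as a block for amounts, sample as a block for strand, bins with a mean of at least 10 sites) and, as an alternative, DESeq2 1.42.0. Replicates are called independent biological replicates in the methods. On simulated data edgeR recovered 36 of 200 bins, drawn from all tested bins and changed by 1.25 times, with 1 false call. Small changes are thus often missed over all bins, and recovery in dense bins alone was not simulated. It also recovered 147 of 200 strand changes with 2 false calls, but these were larger changes simulated with counting noise only. A gene that the naming rule gives is not reported here.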

Additional observations from a re-analysis of the deposited data

How the results depend on the processing

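The number of dense bins was 3237 at 2 times and 81 at 4 times the median, 230 per countable position and 102 against bins of the same GC content (both added after seeing the data), and stayed between 382 and 429 under the other choices, including leaving out each untreated replicate (382 to 428). With gaps sought within 5 bins, 103 dense bins counted as beside a gap, and with runs of at least 2 bins 90 counted as single. At 2 times the median 405 dense bins stood above the bound in all treated samples. The ratio of the 10 U share to that of the lower amounts was 1.01 over all dense bins and turned to 0.984 with termini and to 0.999 without replicate 2 (0.999 to 1.02 over the replicates), so it has no stable direction; beside gaps it was 0.906, 0.814 with termini and 0.882 to 0.947 over the replicates left out.

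For 10 U against the lower amounts the 33 calls became 19 at a threshold of 0.01, 16 with DESeq2, and 12 to 29 when each replicate number was left out. Over all bins the 298 calls became 125 at 0.01 and 52 to 217 without a replicate number. Leaving out single 10 U samples, added after seeing the data, gave 28, 15 and 20 dense bins. For 10 U against 1 U the 14 calls became 7 at 0.01, 2 with DESeq2, 9 in a fit of all 15 samples, 1 to 9 without a replicate number and 12, 3 and 11 without single 10 U samples. For 1 U against 0.1 U there was 1 call without the filter, 9 with termini, and 0 to 1 without a replicate number. The untreated strand calls became 11 with DESeq2 and 10 to 18 without a replicate; the treated ones became 28 at 0.01, 17 with DESeq2, 30 with no replicate block and 27 to 33 without a replicate number. Regions wider than 1 window gave a ratio of 4.01 in dense bins. Pairing by replicate number was not visible: deviations from the mean of each amount correlated at no more than 0.064 between same-numbered treated samples. Counting noise in single bins can hide a pairing, so this does not show that the samples were unpaired. With no replicate block the 10 U calls were 29 against the lower amounts and 10 against 1 U.

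Limits: the reference holds part of each satellite array, and copy number could not be separated from the density of ends. GC content was handled only by comparison with bins of the same GC content, and its part in the density was not tested. With 3 samples a group, small changes in a bin are often missed at this depth.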
